A study of Mus musculus with 3 samples.

Results

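The 9 genes described here carry lipids outside cells, move or modify those lipids, or take them up. They were the apolipoproteins Apoe, Apod, Apoc1 and Clu, the lipid transfer and modifying proteins Pltp, Lcat and Lpl, and the receptors Vldlr and Lrp1. They were picked by symbol from the 46983 gene rows of the count table. All 9 had a count in every library, and 9 of 9 passed the filter on low counts. The study sequenced RNA of mouse leptomeningeal cells, from the delicate inner layers of tissue around the brain. The 3 libraries formed 1 group, sorted cells that the labels call a pia enriched fraction, from vehicle-treated mice. The membranes were microdissected and dissociated, and cells were sorted by flow cytometry. What the vehicle accompanied, the gate of the sort, and the strain, genotype, age and sex of the animals were not given in the sources used here, nor whether each library came from a separate mouse, so p-values measure the spread between these libraries, which may be technical.

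Lipoproteins are particles of cholesterol, phospholipid and triglyceride held in solution by apolipoproteins. In the brain they resemble the high-density lipoproteins of plasma, are built mainly on ApoE secreted by glia, and deliver cholesterol to cells through a family of related lipoprotein receptors. Cells of the meninges and of the choroid plexus also secrete apolipoproteins, and the leptomeninges border the cerebrospinal fluid in which these particles circulate.

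Gene counts came to between 21002860 and 28704952 per library. Values are counts per 1000000 gene counts on scaled library sizes (CPM) and, where genes are compared with each other, CPM per kilobase of exon. Where no read was counted, a level of up to 3 counts (0.101 to 0.152 CPM) could not be told from absence, by counting error only. Fibroblast markers were present throughout: the 6 on the list summed to 23467 to 29100 CPM, and the 9 leptomeningeal fibroblast markers to 1668 to 1742 CPM. Single leptomeningeal markers were less even than their sum. Slc47a1 was at 844, 1239 and 1054 CPM in libraries 1, 2 and 3, and Ptgds at 647, 239 and 518 CPM. The 8 mural cell markers, led by Acta2 and Tagln, summed to 3304, 2838 and 5029 CPM in libraries 1, 2 and 3. Library 1 stood apart. Mitochondrial genes took 0.918% of its gene counts, against 3.60% and 3.46% in libraries 2 and 3, and the 5 lymphocyte markers summed to 2.68, 53.7 and 62.1 CPM. The 11 markers of macrophages and microglia summed to 13.7, 295 and 830 CPM in libraries 1, 2 and 3, and the 7 of choroid plexus epithelium to 80.7, 1692 and 2450 CPM. In bulk RNA, fewer cells of a type and less RNA per cell cannot be told apart.

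Of the 9 genes, 4 had a range between libraries above 1 on the log2(CPM + 1) scale, that is about a doubling: Apod, Pltp and Lcat, all highest in library 1, and Vldlr, lowest there. With plain totals only Vldlr had such a range, and none of the 4 passed the test given below. The 250 bases before their start sites are shown because these genes had the widest ranges, and both RefSeq starts of Vldlr are given. The sequences are RefSeq's on GRCm38.p6, read 5′ to 3′ on the strand of the gene. Capitals mark matches, on either strand, to the GC box GGGCGG or the CCAAT box, and no match overlapped another.
Apod (chr16:31314809-31315058, minus strand): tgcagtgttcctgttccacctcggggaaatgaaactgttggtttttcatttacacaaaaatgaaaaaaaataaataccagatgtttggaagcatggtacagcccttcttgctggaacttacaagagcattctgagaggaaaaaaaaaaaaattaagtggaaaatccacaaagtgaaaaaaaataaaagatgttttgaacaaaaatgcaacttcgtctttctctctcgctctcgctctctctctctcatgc
Pltp (chr2:164857709-164857958, minus strand): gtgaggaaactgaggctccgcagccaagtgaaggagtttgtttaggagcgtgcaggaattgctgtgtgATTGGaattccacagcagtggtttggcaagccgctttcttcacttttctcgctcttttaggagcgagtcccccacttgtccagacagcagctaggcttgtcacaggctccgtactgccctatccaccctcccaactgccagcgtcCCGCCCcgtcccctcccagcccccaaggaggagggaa
Lcat (chr8:105943403-105943652, minus strand): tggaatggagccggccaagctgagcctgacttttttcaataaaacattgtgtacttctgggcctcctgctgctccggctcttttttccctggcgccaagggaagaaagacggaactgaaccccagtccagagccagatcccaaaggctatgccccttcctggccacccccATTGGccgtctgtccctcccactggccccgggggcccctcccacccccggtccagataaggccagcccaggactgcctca
Vldlr, first start (chr19:27216234-27216483, plus strand): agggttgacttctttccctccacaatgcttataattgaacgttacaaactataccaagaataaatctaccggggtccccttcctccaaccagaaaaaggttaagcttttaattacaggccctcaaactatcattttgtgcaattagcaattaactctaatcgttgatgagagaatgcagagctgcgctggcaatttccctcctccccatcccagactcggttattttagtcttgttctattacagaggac
Vldlr, second start (chr19:27216770-27217019, plus strand): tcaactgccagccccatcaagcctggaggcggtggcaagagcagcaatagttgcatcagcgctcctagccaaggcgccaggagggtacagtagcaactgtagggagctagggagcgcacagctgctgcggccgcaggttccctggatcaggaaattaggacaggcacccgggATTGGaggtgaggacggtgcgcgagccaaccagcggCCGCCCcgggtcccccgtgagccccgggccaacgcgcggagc

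The Apod window was poor in G and C (36.4%, with 4 CpG dinucleotides) and held neither motif. Pltp had 57.6% G and C with 9 CpG, Lcat 60.8% with 7, and the 2 Vldlr windows differed: 41.6% with 5 CpG at the first start and 66.4% with 18 at the second. Over 32851 RefSeq windows of this length the medians were 52.4% and 6 CpG. The Pltp window and the second Vldlr window held 1 GC box and 1 CCAAT box each, Lcat held 1 CCAAT box, and the first Vldlr window held neither. Those motifs were found in 32.7% and 33.8% of all windows, so a match is common. A TATA box (TATAAA, 12.4% of windows) and an E-box (CACGTG, 6.02%) had no match in the 5 windows, on either strand. RefSeq windows were matched for 6 of the 9 genes. No link between these letters and the levels was tested.

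The levels of the 9 genes spanned about 3 orders of magnitude per kilobase of exon. Apod was the most abundant and Apoc1 the least. Together the genes took 0.769%, 0.524% and 0.552% of gene counts in libraries 1, 2 and 3 (0.615% ± 0.134, SD, n = 3), of which Apod and Lrp1 made up 75.1% ± 4.57. Their median level was 90.3 CPM per kilobase, against 3.70 over all genes tested. The 9 genes were chosen with earlier results of these data known, so this contrast is a description only.

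Apod (chromosome 16, 31296192 to 31314808) encodes apolipoprotein D, which is a lipocalin and not a relative of ApoE. It carries small hydrophobic molecules and is known as a product of fibroblasts, glia and perivascular cells. It was at 3795, 1831 and 1884 CPM in libraries 1, 2 and 3 (2503 ± 1119, SD, n = 3). Library 1 lay apart, and libraries 2 and 3 were close together. Per kilobase Apod reached 971 ± 434 CPM and took rank 32 of the 14375 tested genes with a known length, and ranks 22, 44 and 41 in the single libraries.

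Apoe (chromosome 7, 19696109 to 19699188) encodes the main ligand by which brain lipoproteins reach these receptors. It was at 689, 474 and 664 CPM (609 ± 118, SD, n = 3), lowest in library 2. Its level per kilobase was 285 ± 55.1 CPM, rank 159. Libraries 1 and 3 were close, and which of them was higher depended on the scaling: library 1 here, library 3 with plain totals.

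Clu (chromosome 14, 65968483 to 65981547) encodes clusterin, also called apolipoprotein J, an extracellular chaperone found in brain lipoproteins. It was at 480, 386 and 595 CPM (487 ± 105, SD, n = 3), with library 3 highest and library 2 lowest. Per kilobase it reached 142 ± 30.5 CPM, rank 342. Apoe exceeded Clu per kilobase in 3 of 3 libraries, by ratios of 2.31, 1.97 and 1.79.

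Apoc1 (chromosome 7, 19689481 to 19692660) encodes a small apolipoprotein that inhibits the uptake and remodelling of lipoproteins and is known from liver and macrophages. It had 20, 13 and 19 counts, or 1.01, 0.437 and 0.733 CPM. The 95% exact Poisson intervals, for counting error only, were 0.617 to 1.56, 0.233 to 0.747 and 0.441 to 1.14 CPM, and all overlapped. So few counts could not resolve a difference between the libraries. They lay above the limit that a count of 0 allows.

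Apoc1 is the next gene to Apoe on the chromosome, 3448 bases away and on the same strand. Even so, Apoe exceeded it per kilobase 237-fold, 378-fold and 315-fold in libraries 1, 2 and 3. Beyond Apoc1 lie Apoc4 and Apoc2, which encode further small apolipoproteins; Apoc2 is the activator of lipoprotein lipase. Apoc4 had 0, 0 and 5 counts and Apoc2 1, 0 and 2, so both were at or near the detection limit. On the other side lie Tomm40, of the mitochondrial import pore, at 12.5 ± 5.90 CPM, Nectin2, an adhesion protein, at 17.0 ± 5.48 CPM, and Bcam, a laminin receptor, at 255 ± 101 CPM (SD, n = 3). Per kilobase, Apoe was above each of the other 8 genes of this stretch in every library, and Bcam came next at 79.8 ± 31.5 CPM per kilobase.

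**Figure D1:**
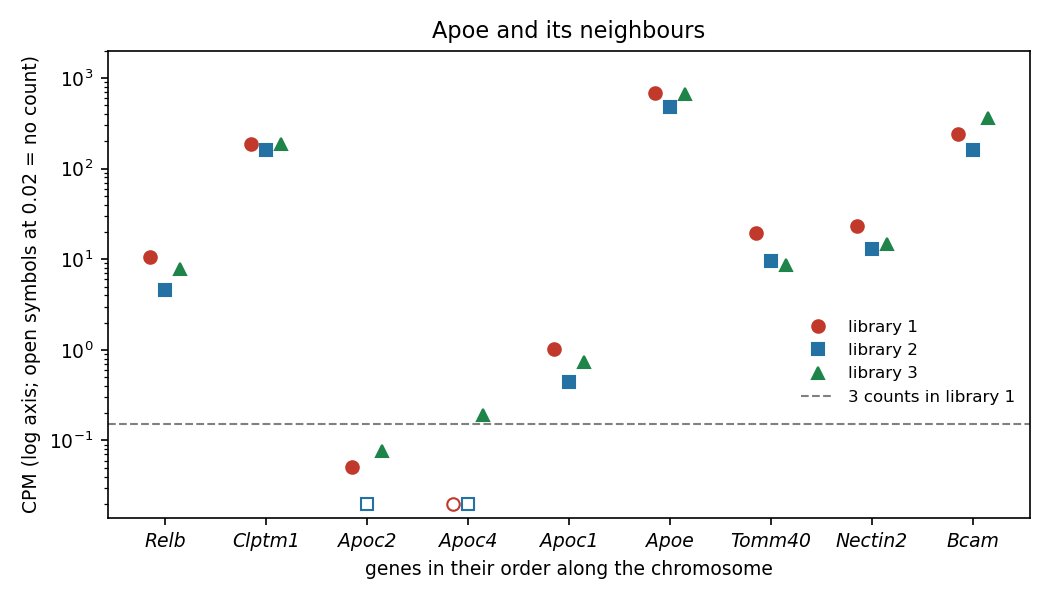
CPM (log axis) of Apoe and 8 neighbouring genes in their order along chromosome 7, with 1 symbol for each of 3 libraries; open symbols at the bottom stand for no count and the dashed line for 3 counts in library 1. Apoe lay between 474 and 689 CPM, Apoc1 between 0.437 and 1.01 CPM, and Apoc4 and Apoc2 were near or below the dashed line.

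Among the proteins that act on particles, Pltp was the highest. It encodes phospholipid transfer protein, which moves phospholipids between lipoproteins (chromosome 2, 164839518 to 164857711). Pltp was at 349, 178 and 167 CPM (231 ± 102, SD, n = 3) and 90.3 ± 39.7 CPM per kilobase, rank 554. Library 1 stood above libraries 2 and 3, which were close to each other. Of its annotated exon sequence, 495 bases (19.3%) overlap exons of Ctsa on the opposite strand; reads there may have been set aside or split, so its level is uncertain.

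Lcat encodes lecithin-cholesterol acyltransferase, which esterifies cholesterol on lipoproteins (chromosome 8, 105939551 to 105943382). It was at 42.4, 19.1 and 30.0 CPM (30.5 ± 11.6, SD, n = 3), 22.7 ± 8.67 CPM per kilobase, rank 2113. The libraries were spread evenly, with library 1 highest and library 2 lowest. Pltp exceeded Lcat per kilobase 4.31-fold, 4.87-fold and 2.92-fold.

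Lpl encodes lipoprotein lipase, which hydrolyses triglycerides in particles (chromosome 8, 68880491 to 68907448). It was at 86.6, 109 and 97.0 CPM (97.7 ± 11.4, SD, n = 3), a range of 0.33 on the log2 scale. That was the narrowest of the 9 genes, but with plain totals Lrp1 (0.38), Apoc1 (0.43) and Apoe (0.467) were narrower than Lpl (0.470). With GC content and length trends removed the range of Lpl was 0.54, above those of Apoc1, Lrp1, Apoe and Lcat. Its annotated exons are long, so it came to 9.32 ± 1.09 CPM per kilobase, rank 4188. With the longest annotated transcript as its length in place of the union of exons, Lpl moved above Lcat.

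Lrp1 (chromosome 10, 127538161 to 127621148) encodes a very large endocytic receptor that takes up ApoE-bearing particles, protease complexes and matrix proteins. It was at 2695, 1978 and 1913 CPM (2195 ± 434, SD, n = 3), highest in library 1. By mean CPM it was second to Apod, which was at 3795, 1831 and 1884 CPM, so Lrp1 was above Apod in libraries 2 and 3. The exons of Lrp1 are the longest of the set. Per kilobase it was at 124 ± 24.5 CPM, rank 406, below Apoe and near Clu.

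Vldlr (chromosome 19, 27216484 to 27254231) encodes the very low-density lipoprotein receptor, which binds ApoE-bearing particles and also reelin. It was at 24.4, 75.7 and 42.9 CPM (47.6 ± 26.0, SD, n = 3), with library 1 lowest and library 2 highest. This was the widest range of the 9 genes, 1.60 on the log2 scale. Per kilobase it came to 4.73 ± 2.58 CPM, rank 6350. Lrp1 exceeded Vldlr per kilobase 62.9-fold, 14.9-fold and 25.3-fold, higher in 3 of 3 libraries.

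Per kilobase, the order was Apod, Apoe, Clu, Lrp1, Pltp, Lcat, Lpl, Vldlr and Apoc1. Of the 8 neighbouring pairs in this order, 6 did not overlap over the 3 libraries. The exceptions were Clu with Lrp1 and Lrp1 with Pltp, whose ranges over libraries overlapped. Within single libraries, Lrp1 exceeded Pltp in 3 of 3 and Clu exceeded Lrp1 in 2 of 3, and without library 1 all 8 pairs were apart. Lpl and Vldlr were only just apart, since the lowest Lpl library was at 8.26 and the highest Vldlr library at 7.52 CPM per kilobase; with plain totals 5 pairs remained without overlap. The order is a description: an exact permutation test by sign flips cannot give a two-sided p below 0.25 with 3 libraries.

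**Figure D2:**
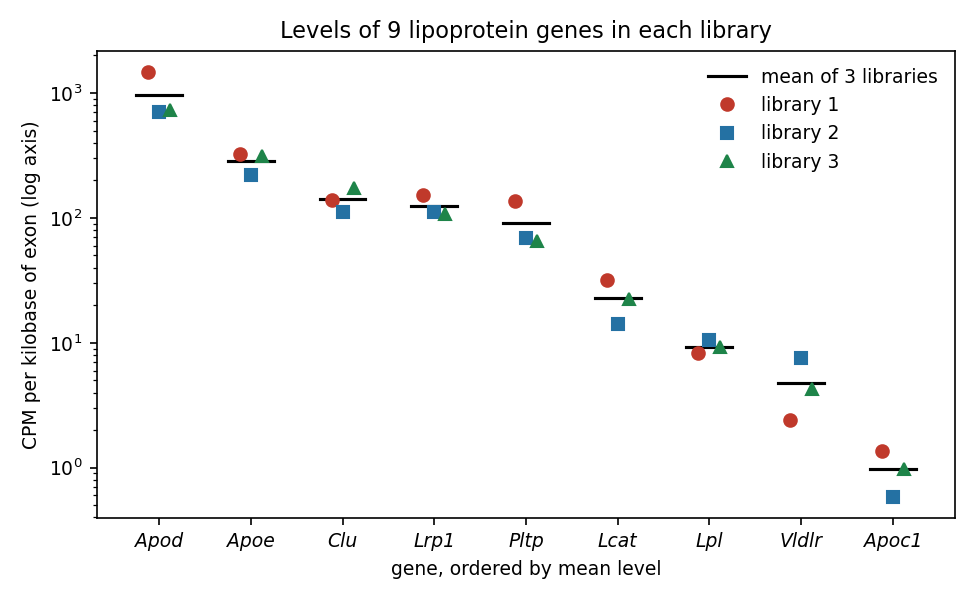
CPM per kilobase of exon (log axis) of the 9 genes in order of mean level, with 1 symbol for each of 3 libraries and a line at their mean. Levels run from Apod at 971 to Apoc1 at 0.977 CPM per kilobase, and the symbols of Clu, Lrp1 and Pltp overlap.

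Whether the 9 genes varied between libraries beyond other genes of like abundance was tested over all 14409 genes past the filter. None of the 9 was called (edgeR goodness of fit, Benjamini-Hochberg adjusted p under 0.05), where 63 genes, or 0.437%, were called over the whole table. At an unadjusted p under 0.05, 0 of 9 passed, against 7.04% of all genes, and with DESeq2's size factors and dispersion trend 0 of 9 were called as well. Vldlr came nearest, with an unadjusted edgeR p of 0.0524 and an adjusted p of 0.721, and its adjusted p was 0.605 to 0.9999 over the alternatives. Pltp followed with an edgeR adjusted p of 0.975, and the other 7 genes had an edgeR adjusted p of 0.9997. A p that misses the threshold does not show that these genes were equal in the 3 libraries.

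The median range of the 9 genes was 0.62 on the log2(CPM + 1) scale, against 0.67 over all genes tested, and 26.1% of all genes had a range above 1. With library sizes taken as plain totals, 1 of the 9, Vldlr, had a range above 1; that scaling moved the median of all genes in library 1, relative to the mean of libraries 2 and 3, from -0.0048 to -0.11. Library 1 was the highest library for 6 of the 9 genes (Apoe, Apod, Apoc1, Pltp, Lcat and Lrp1), and for 5, without Apoe, with plain totals. It was the highest for 39.6% of all genes.

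Over the table, the median of library 1 minus the mean of libraries 2 and 3 was -1.06 (log2) in the 10% of genes lowest in GC content and 0.36 in the 10% highest, and 0.33 and -0.41 in the 10% with the shortest and the longest exons. The 9 genes are therefore also given with smooth trends in GC content and exon length removed, an alternative added for these ranges after the data had been seen. Vldlr and Lpl, at 43.8% and 43.5% GC in their longest transcript, were the genes lowest in library 1. Apoe, Lrp1 and Pltp had 59.5%, 57.9% and 57.3%, Clu 55.6%, Lcat 55.5% and Apoc1 54.9%. Of these, Clu was highest in library 3 and the others in library 1. Apod had 47.8%, below the median of 49.8% over all genes, and was highest in library 1. With the trends removed, the range of Vldlr was 0.79, that of Pltp 0.71 and that of Lcat 0.48. Apod alone kept a range above 1, at 1.16, with 3989, 1790 and 1833 trend-corrected CPM. Under this correction Apoe and Apoc1 were highest in library 3, and Lpl turned from lowest to highest in library 1 (123, 84.5 and 88.3 trend-corrected CPM). The unadjusted edgeR p of Apod was then 0.0368, and its adjusted p was 0.675.

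**Figure D3:**
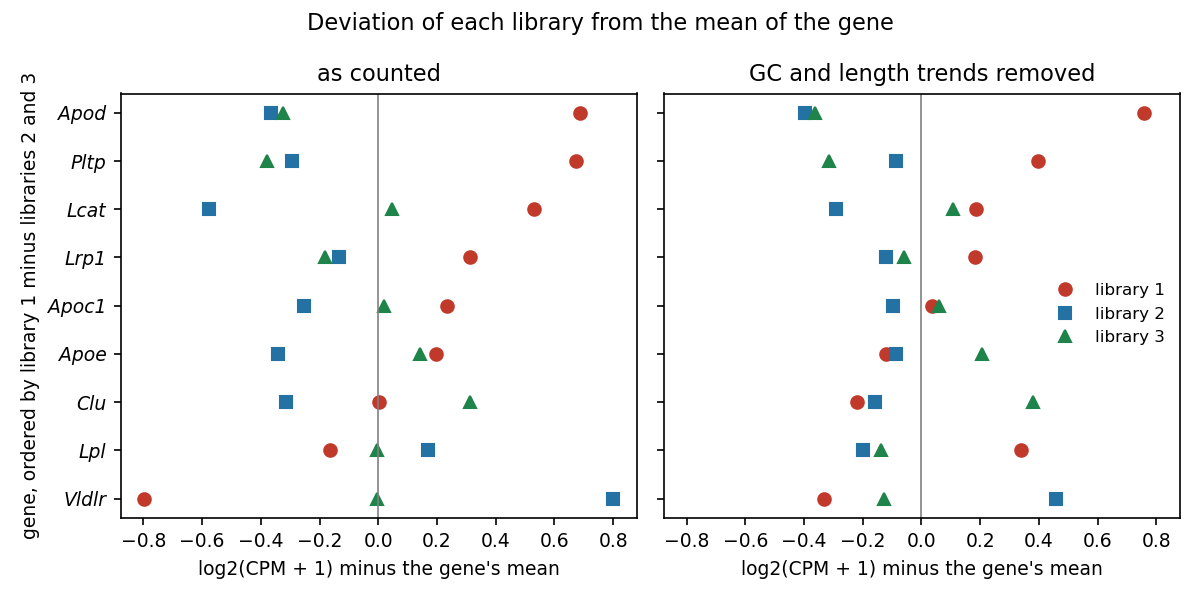
Deviation of each library from the mean of the gene on the log2(CPM + 1) scale for the 9 genes, as counted (left) and with GC content and length trends removed (right); genes are ordered by library 1 minus the mean of libraries 2 and 3. Apod keeps its distance in library 1 in both panels (range 1.05 and 1.16), while the range of Vldlr goes from 1.60 to 0.79.

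ApoE, ApoC1 and lipoprotein lipase are also known products of macrophages and microglia, and clusterin and ApoE of astrocytes and choroid plexus. The macrophage and microglia list was lowest in library 1, where 13.7 CPM stood against 830 CPM in library 3, with 8 of its 8 tested markers called variable; all 11 had a count in every library. Its most abundant markers, Lyz2 and C1qb, were at 4.34 and 1.62 CPM in library 1 and at 230 and 130 CPM in library 3. Over libraries 1, 2 and 3, Apoe was at 689, 474 and 664 CPM, Apoc1 at 1.01, 0.437 and 0.733 CPM and Lpl at 86.6, 109 and 97.0 CPM.

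The choroid plexus list, led by Enpp2 (41.7, 1503 and 2237 CPM) and Clic6 (13.5, 43.3 and 41.3 CPM), was likewise lowest in library 1, with 3 of 6 tested markers called. Clu was at 480, 386 and 595 CPM in libraries 1, 2 and 3. Astrocyte markers summed to 743, 613 and 524 CPM, and 0 of 7 were called. Most of that sum was Gjb6, also made by meningeal cells, at 678, 559 and 419 CPM. Slc1a3 was at 31.7, 24.1 and 38.8 CPM and, like every astrocyte marker but Gjb6, was highest in library 3. Schwann cell markers, led by Pmp22 at 1309 ± 255 CPM (SD, n = 3), summed to 1803 to 2944 CPM, with 1 of 6 called, and were highest in library 3. The part of these cell types in the levels of the 9 genes was not tested.

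Each gene's pattern over the 3 libraries was also set beside the mean pattern of each marker list, as the root mean square difference of centred log2(CPM + 1). All 9 lay farthest from the macrophage and microglia list (1.73 for Vldlr to 2.57 for Pltp), the list with the widest spread. Lpl lay nearest to the fibroblast list (0.0188). Clu and Apoe lay nearest to the endothelial list (0.0973 and 0.159), Apod, Pltp and Lcat to the erythroid list (0.29, 0.339 and 0.27), Apoc1 and Lrp1 to the neuron list (0.179 and 0.196) and Vldlr to the arachnoid barrier list (0.474). The neuron list was nearly flat (0.0368, -0.0149 and -0.0219 in libraries 1, 2 and 3), so genes of narrow range lie near it by construction. Apoc1 lay almost as near to the endothelial list (0.186). Hbb-bs of the erythroid list was at 507, 114 and 209 CPM. These distances rest on 3 points that share library depth and base composition and are descriptions only.

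Another 130 genes, in 10 lists of lipoprotein and cholesterol genes, the reelin pathway and neighbours of Apoe, were read from the same fit. Of these, 101 were tested, 0 were called by edgeR at an adjusted p under 0.05 (0.437% of all genes were), and 6 (5.94%) had an unadjusted p under 0.05, against 7.04% of all genes. Of the 17 other genes on the apolipoprotein list, 4 passed the filter, and 4 had no count in any library, among them Apob, the scaffold of plasma low-density lipoproteins, and Apoa4. Those that passed were low. Apoo and Apool, which despite their names are proteins of the mitochondrial inner membrane, were at 5.51 ± 3.01 and 2.49 ± 1.58 CPM per kilobase and Apof at 3.32 ± 1.17. Apoa1, the main protein of plasma high-density lipoproteins, had 20, 23 and 13 counts. Apoe was thus at 285 CPM per kilobase where no other gene of that list exceeded 5.51.

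Of 18 other genes of the lipoprotein receptor family and its partners, 15 were tested and 0 called. The highest was Lrpap1, the chaperone that keeps newly made LRP1 free of ligand, at 1032, 804 and 609 CPM (198 ± 51.4 CPM per kilobase, SD, n = 3). Mesd, a second chaperone of the family, was at 39.7 ± 7.91 CPM per kilobase and Mylip, a ubiquitin ligase that degrades receptors of the family, at 23.7 ± 1.71. Among the receptors themselves, named here after their values were seen, Lrp6, a Wnt co-receptor, was at 16.7 ± 3.45 and Lrp8, the other reelin receptor, at 0.173 ± 0.0751 CPM per kilobase. Lrp1 exceeded both in every library. Lrp2, the megalin receptor, had 0, 11 and 4 counts. Of the scavenger and high-density lipoprotein receptor list, 6 of 11 were tested and 0 called; Cd68, a macrophage protein, was at 4.80, 12.7 and 21.2 CPM, Scarb2 at 6.79 ± 1.67 and Scarb1, the high-density lipoprotein receptor, at 5.13 ± 0.535 CPM per kilobase.

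**Figure D4:**
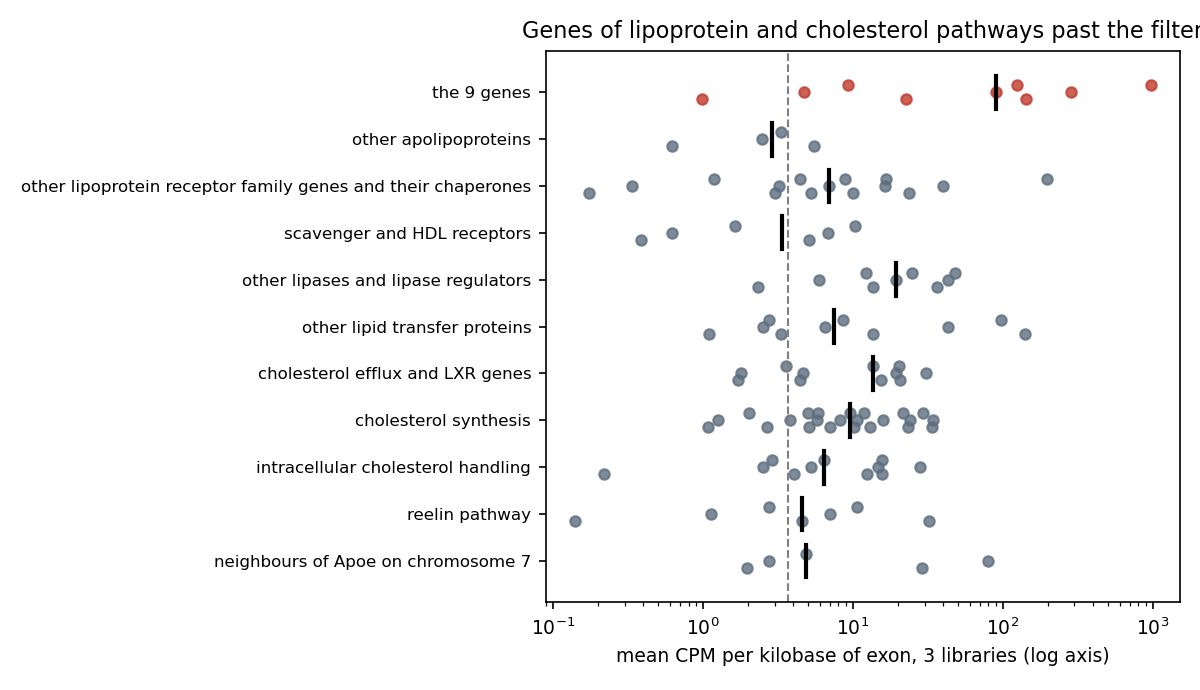
Mean CPM per kilobase of exon (log axis) of each gene past the filter, by list; black bars are list medians and the dashed line is the median of all genes tested, 3.70. The 9 genes have a median of 90.3, and the other lists have medians from 2.90 for other apolipoproteins to 19.3 for other lipases and lipase regulators. The 9 genes and the lists were chosen with earlier results of these data known.

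Genes that act on lipases were moderately abundant, with 9 of 13 tested and 0 called. Lmf2, related to the maturation factor of lipoprotein lipase, was at 47.9 ± 13.6 CPM per kilobase, Pnpla2, the intracellular triglyceride lipase, at 43.3 ± 8.27, and Angptl4, a secreted inhibitor of lipoprotein lipase, at 36.4 ± 3.86. Of the other lipid transfer proteins, 10 of 11 were tested and 0 called. Lbp, which belongs to the same protein family as Pltp and binds bacterial lipopolysaccharide, was at 897, 712 and 424 CPM (140 ± 49.3 CPM per kilobase), Npc2, a lysosomal sterol carrier, at 96.9 ± 25.8, and Scp2, an intracellular sterol carrier, at 43.2 ± 4.19 CPM per kilobase. Lbp was lowest in library 3, and its range was 1.08 on the log2 scale.

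On the cell side, 11 of 13 genes of cholesterol efflux and the LXR nuclear receptors were tested and 0 called. Nr1h2, which encodes LXR beta, was at 103, 105 and 102 CPM (30.8 ± 0.311 CPM per kilobase), Srebf1, a transcription factor of lipid synthesis, at 20.7 ± 2.47, and Rxra, a partner of LXR, at 20.4 ± 5.36 CPM per kilobase. All 23 genes of cholesterol synthesis were tested and 0 were called. Ebp, a sterol isomerase, was at 34.1 ± 9.81, Hmgcs1, which acts before the rate-limiting step, at 33.4 ± 2.32, and Pmvk, a kinase of the pathway, at 29.2 ± 13.1 CPM per kilobase. Of the reelin pathway, 7 of 7 genes were tested and 0 called. Dab2, an endocytic adaptor, was at 32.3 ± 7.71, Crkl at 10.6 ± 1.33 and Crk at 7.02 ± 2.68 CPM per kilobase. Reln, which encodes reelin itself, and Dab1 were the lowest of the list, at 1.14 ± 0.437 and 0.139 ± 0.0517 CPM per kilobase.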

How the data were processed

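Per the submitters' processing notes the genome build was mm10 (GRCm38) and the tools were HTSeq 0.5.3 and DESeq2 1.22.1; aligner, annotation release and strand setting were not given in the sources used here. The authors deposited 1 table of raw counts per gene, with 46983 gene rows and 5 counter rows for reads given to no gene (39.1% to 45.6% of each library), which were left out of library sizes. Per the labels' protocols, 2 ng of RNA was amplified over 12 cycles, and 8 PCR cycles followed.

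TMM scaling was done with edgeR 4.0.16 (R 4.3.3), and filterByExpr at a minimum count of 10 kept 14409 genes. Variation between libraries was tested by edgeR goodness of fit: an intercept-only model at the trended dispersion, its deviance read against a chi-square (2 degrees of freedom), adjusted after Benjamini-Hochberg with a threshold of 0.05, and the script was tested on simulated data. DESeq2 1.42.0 gave alternative size factors and dispersions. Lengths, GC content and coordinates came from GENCODE M21 on GRCm38, matched on gene identifier. Differences on the log2(CPM + 1) scale understate those of low genes. Alternatives were other scalings, filters, dispersions, lengths and denominators, removal of GC content and length trends, and leaving out each library.

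The 9 genes and the lists were chosen with earlier results of these data known. Named were the 9 genes, the 3 highest of each list per kilobase and any called gene, the 2 highest markers of each marker list (printed where the list stands beside a result), and the 3 genes most like the widest-ranging of the 9; other names were chosen after their values were seen. Some listed genes are not reported here. Older symbols served 3 list genes.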

Additional observations from a re-analysis of the deposited data

How the results depend on the processing

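None of the 9 genes was called variable under the main setting or any of the 10 alternatives run, with 9 of 9 tested in each; Vldlr passed an unadjusted p of 0.05 with plain totals, without library 1 and without library 3, and Apod with the trends removed. The count of variable genes over the table (63) rose to 134 with no filter and 181 with a filter on the mean count, where 25083 and 16392 genes were tested, and to 110 with GC content and length trends removed; the cause of the last was not tested. It ranged from 12 (without library 3) through 27 (without library 1) to 28 (without library 2) with fewer samples. The share of the 9 genes (0.615%) was 0.357% with the counter rows in the denominator, by construction. The means of the 9 levels with DESeq2 size factors or plain totals (18 values) stayed within 1 SD; leaving out 1 of 3 libraries cannot move a mean further than that. The number of neighbours without overlap was 5 to 8. No paired analysis was possible because all libraries belong to 1 group. Depth limited Apoc1 and the genes at or under 3 counts.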

Other observations

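Of the 12 genes of intracellular cholesterol handling 11 were tested and 0 called. Ch25h, which makes 25-hydroxycholesterol, was at 34.0, 10.2 and 7.60 CPM in libraries 1, 2 and 3, and Soat1, which esterifies cholesterol for storage in droplets, at 88.8, 109 and 260 CPM. Their unadjusted edgeR p were 0.00819 and 0.0224, and their adjusted p 0.340 and 0.506, so neither passed. Nceh1, which releases stored cholesterol, was at 28.0 ± 8.58 and Lipa, the lysosomal acid lipase, at 15.6 ± 0.622 CPM per kilobase (SD, n = 3).

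The other list genes with an unadjusted edgeR p under 0.05, a share below that of all genes (5.94% against 7.04%), were Apool, Cd68, Stab1 and Fabp4. Stab1, a scavenger receptor of macrophages and endothelium, was at 5.71, 16.9 and 27.9 CPM, lowest in library 1 as Cd68 was. Fabp4, a fatty acid carrier of fat cells and capillaries, was at 2.32, 2.62 and 9.79 CPM.

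The 3 genes whose pattern over the libraries was most like that of Vldlr, by root mean square difference of centred log2(CPM + 1) among 3755 other genes with a range of at least 1, were 9830147E19Rik (0.0027), Gm43813 (0.016) and Eif2ak2 (0.0273). Eif2ak2, the double-stranded RNA-activated kinase PKR, was at 18.6, 55.8 and 32.0 CPM. The other genes were low: 9830147E19Rik was at 0.505, 3.56 and 1.62 CPM and Gm43813 at 1.47, 6.65 and 3.35 CPM. At such levels the added 1 CPM shrinks differences, so their likeness to Vldlr depends on it. With 3 libraries such likeness is common: 91 of the 3755 genes lay within 0.1 of Vldlr. In their longest transcript 9830147E19Rik, Gm43813 and Eif2ak2 had 38.0%, 43.0% and 43.9% GC, and Vldlr had 43.8%. The part of GC content in this likeness was not tested.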
